A study of Mus musculus with 13 samples.

Results

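The genes described here are 9 that encode the enzymes that write and remove DNA methylation in mouse haematopoietic stem cells (HSCs), with the enzymes that supply a cofactor for its removal. They are Dnmt1, Uhrf1, Dnmt3a, Dnmt3b, Tet1, Tet2, Tet3, Idh1 and Idh2, and they were taken by name from a table of 24015 genes. All 9 were found and all 9 passed the filter on low counts. They were measured by bulk RNA-seq of polyadenylated RNA in 13 libraries, each from 100 HSCs. The HSCs were progeny of single Vwf+ cells transplanted into mice whose blood was then followed for 16 weeks. There were 3 PLT-HSC libraries, from recipients with P-restricted reconstitution, 6 PEM-HSC libraries, from recipients with PEM-restricted reconstitution, and 4 MUL-HSC libraries, from recipients with multilineage reconstitution. From the published study, P stands for platelets and PEM for platelets, erythroid and myeloid cells. All groups share the strain C57BL/6 and the sort phenotype LSKFlt3-CD150+CD48-CD45.2+Gata1-, so each is donor-derived and carries the same Gata1 gate. Age and treatment of the recipients are not given in the labels, nor whether replicates came from separate recipients, so p-values measure the spread between libraries, which may be technical in part.

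DNA methylation in mammals is placed mostly on the cytosine of CpG dinucleotides. After replication, the reader UHRF1 finds CpGs methylated on one strand and brings in DNMT1, which restores the mark on the new strand, whereas DNMT3A and DNMT3B add methyl groups at unmethylated sites. The TET enzymes oxidise methylated cytosine, with iron and alpha-ketoglutarate (also called 2-oxoglutarate) as cofactors, and isocitrate dehydrogenases make alpha-ketoglutarate. In blood, DNMT3A and TET2 are known for loss-of-function mutations in human clonal haematopoiesis, and IDH1 and IDH2 for mutations in human leukaemia that make a product inhibiting the TET enzymes.

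Total gene counts per library lay between 16371921 and 41367057, and 11233 to 12310 genes had a count. All 10 HSC markers, among them Kit, Procr and Mecom, had counts in all 13 libraries, and their summed level was 2797 to 3853 CPM (counts scaled to the library's gene total) in PLT-HSC, 2638 to 3198 CPM in PEM-HSC and 1885 to 2813 CPM in MUL-HSC. The genes Cd48, Flt3 and Gata1, whose products or reporter the sort excluded, summed to 6.47 to 24.97 CPM in PLT-HSC, 2.94 to 22.4 CPM in PEM-HSC and 13.4 to 89.7 CPM in MUL-HSC. MUL-HSC replicates 1 and 2 had the 2 highest Cd48 levels (59.0 and 22.9 CPM) and the 2 highest Flt3 levels (10.7 and 39.2 CPM). MUL-HSC replicate 4 was close in Flt3 (8.73 CPM). Gata1 did not set both apart, at 18.2 and 27.56 CPM, with PLT-HSC replicate 3 at 24.94 CPM and PEM-HSC replicate 2 at 22.39 CPM. Because of Cd48 and Flt3, comparisons with MUL-HSC were also run without both replicates. Macrophage markers (7 of 8 symbols in the table) summed to 52.0 to 209 CPM in PLT-HSC, 51.1 to 318 CPM in PEM-HSC and 19.9 to 26.9 CPM in MUL-HSC. C1qa, C1qb and C1qc of that list were at 0 in some libraries, and Cd68 had counts in all. Cd68 alone was at 184.9, 158.7 and 26.27 CPM in PLT-HSC, 20.59 to 239.8 CPM in PEM-HSC and 11.4 to 19.73 CPM in MUL-HSC. It made up most of the highest sum in PLT-HSC and in PEM-HSC. Markers of other cell types had counts too. Megakaryocyte and platelet markers summed to 113 to 214 CPM in PLT-HSC, 134 to 194 CPM in PEM-HSC and 96.1 to 253 CPM in MUL-HSC. T and NK cell markers summed to 157 to 376, 92.5 to 364 and 122 to 232 CPM in the same order. Neutrophil and monocyte markers summed to 1189 to 2189, 1119 to 1735 and 1420 to 1970 CPM. Lyz2 of that list was at 883 to 1692 CPM over the 13 libraries. The part of these marker levels in the values of the methylation genes was not tested. In RNA from pooled cells, fewer cells of a type that expresses a gene and less RNA of that gene per cell cannot be told apart.

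All 9 genes were detected in every library. To set different genes side by side, CPM was divided by the median length of the gene's annotated transcripts in kb. On this per-length scale the order of the mean levels over 13 libraries was Idh2 (167 CPM per kb, SD 54.1), Idh1 (57.9, SD 22.9), Dnmt1 (8.499, SD 4.996), Uhrf1 (6.06, SD 6.52), Dnmt3b (5.23, SD 3.55), Dnmt3a (2.21, SD 1.47), Tet3 (2.07, SD 1.37), Tet2 (1.85, SD 0.744) and Tet1 (1.62, SD 0.939). Idh2 was above Idh1 in 13 of 13 libraries, and Idh1 was above Dnmt1 in 12 of 13, with PLT-HSC replicate 3 as the exception. Dnmt1 was above Uhrf1 in 10 of 13 libraries, and Dnmt3b was above Dnmt3a in 11 of 13. The other neighbouring pairs had no steady order. Uhrf1 was above Dnmt3b in 5 of 13 libraries, Dnmt3a above Tet3 in 6, Tet3 above Tet2 in 7 and Tet2 above Tet1 in 7, so the order of the lower levels was within the spread between libraries. Within groups the lower ranks differed too: in MUL-HSC, Dnmt3a was the lowest (1.51 CPM per kb, SD 0.718, n = 4), whereas its mean was above those of all TET genes in PLT-HSC (3.73, SD 2.05, n = 3) and in PEM-HSC (1.92, SD 1.16, n = 6).

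**Figure D1:**
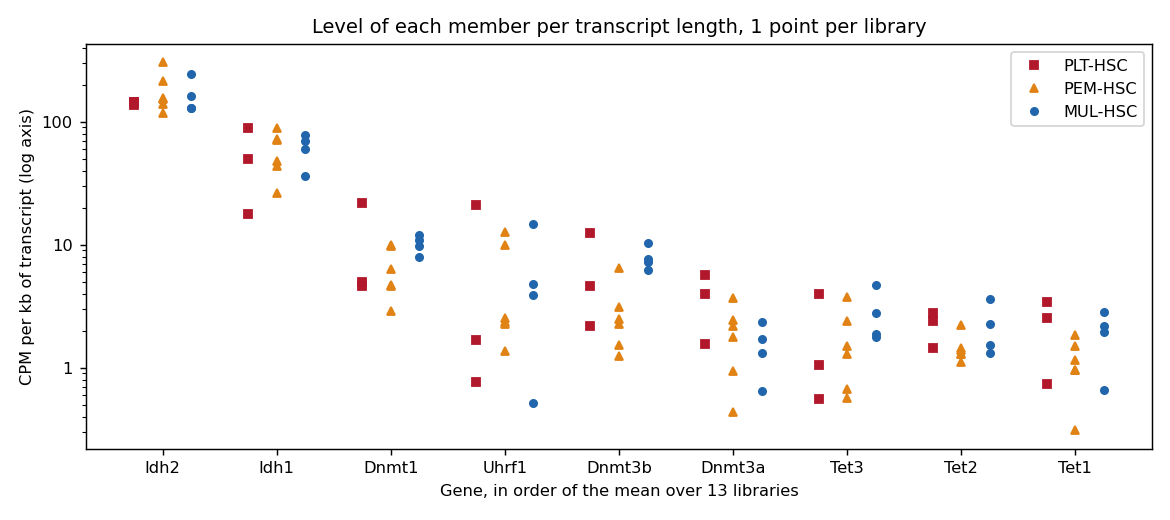
Level of each gene per transcript length (CPM per kb, log axis) in each of 13 libraries, with 1 point per library, the genes in order of their mean and the groups side by side within a gene. Idh2 and Idh1 lie above the other genes in all libraries but 1, and the points of the TET genes and Dnmt3a overlap.

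Maintenance methylation rests on Dnmt1, the methyltransferase itself, and Uhrf1, its recruiting factor. Dnmt1 was at 24.6, 26.6 and 118 CPM in PLT-HSC, at 15.4 to 53.7 CPM in PEM-HSC (median 29.7), against 52.0, 59.2, 42.3 and 64.7 CPM in MUL-HSC. The MUL-HSC libraries were close together, while PLT-HSC replicates 1 and 2 lay below all of them and replicate 3 above all of them. Uhrf1 was at 2.62, 5.83 and 73.0 CPM in PLT-HSC, at 4.68 to 43.6 CPM in PEM-HSC (median 8.42), against 50.5, 13.5, 1.77 and 16.4 CPM in MUL-HSC. Each group held both low and high libraries, and the groups overlapped. The edgeR log2 fold change of Dnmt1 was -0.04 (SE 0.52, adjusted p = 0.999) for PLT-HSC against MUL-HSC, -0.69 (SE 0.44, unadjusted p = 0.131) for PEM-HSC against MUL-HSC and 0.66 for PLT-HSC against PEM-HSC. For Uhrf1 the 3 values were 0.26 (SE 1.11), -0.25 and 0.51. None passed the test, which calls a gene at an adjusted p under 0.05 by edgeR's quasi-likelihood test with Benjamini-Hochberg adjustment over 12536 genes.

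Uhrf1 also varied most among the 9 genes. Its SD within groups was 1.78 on the log2 CPM scale, higher than in 69.9% of all 12536 tested genes. It was higher than in 94.7% of the 8256 genes with a mean log2 CPM of at least 3, whose median SD was 0.57. The mean log2 CPM of Uhrf1, 3.58, was near that cutoff, and the SD was not matched for level. Idh2, at 0.43, and Tet2, at 0.48, were the least variable of the 9 on this measure.

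Dnmt1 and Uhrf1 were also the only 2 of the 9 genes with a match to the E2F words in the 250 bases before a RefSeq start. E2F factors are known for control of genes of DNA replication. The words searched on both strands were TTTCCCGC, TTTGGCGC, TTTCGCGC and TTTGCCGC, and 1.86% of all 32851 such windows, or 2.16% of genes, held one. The 2 stretches below come from the RefSeq promoter table (GRCm38.p6) and are shown because they carry the only matches. They are printed 5′ to 3′ on the strand of the gene, with the word in capitals. For Uhrf1 the whole window is given, chr17:56304063-56304312 on the plus strand, outside annotated exons, with 177 bases between the word and the start. For Dnmt1 a stretch of 30 bases is given, chr9:20952824-20952853 on the minus strand, where the capitals are the reverse complement of TTTCGCGC. It lies 211 bases before one RefSeq start and inside an annotated untranslated exon of another transcript.
Uhrf1: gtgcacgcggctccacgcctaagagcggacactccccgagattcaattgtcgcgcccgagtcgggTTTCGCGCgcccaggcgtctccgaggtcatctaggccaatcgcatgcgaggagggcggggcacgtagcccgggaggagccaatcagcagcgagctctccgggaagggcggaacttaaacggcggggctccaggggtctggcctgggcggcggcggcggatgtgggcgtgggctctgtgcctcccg
Dnmt1: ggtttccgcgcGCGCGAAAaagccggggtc
The CCAAT word lay in windows of 5 of the 9 genes, against 37.5% of all genes, and TATAAA in 0 of 9, against 14.3% of all genes. The windows of the 9 genes held 2 to 51 CpG dinucleotides, against a median of 6 over all windows. These matches describe the letters only.

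**Figure D2:**
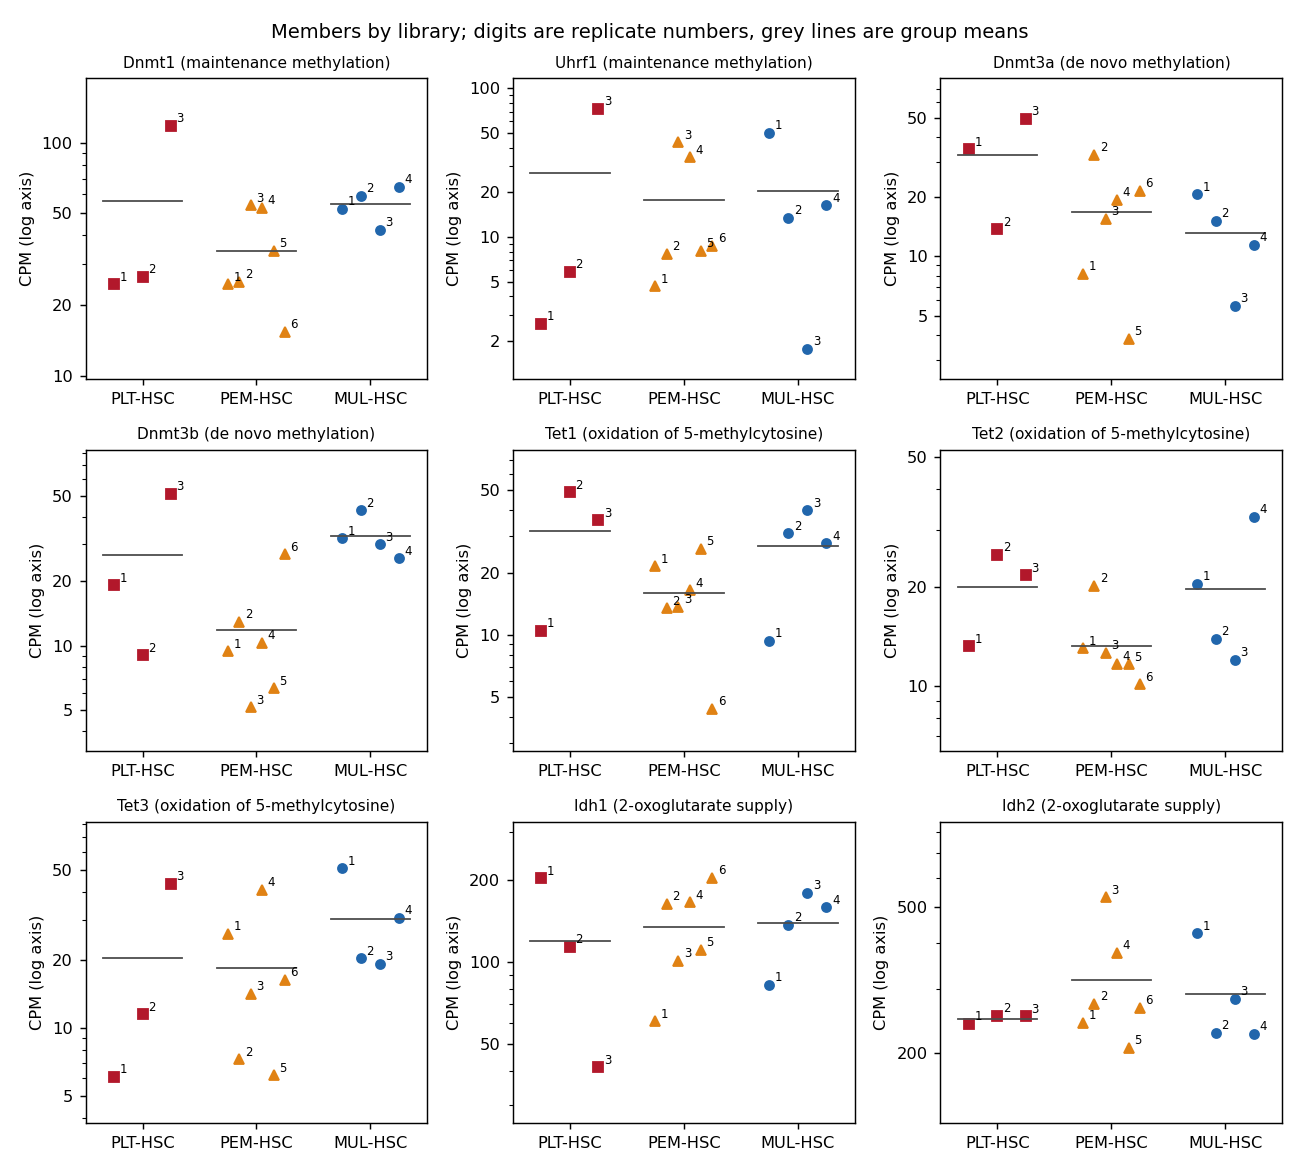
CPM (log axis) of each of the 9 genes in every library, with PLT-HSC, PEM-HSC and MUL-HSC from left to right, a point per library marked with its replicate number and a grey line at the group mean. PLT-HSC replicate 3 is the highest of 13 libraries for Dnmt1, Uhrf1, Dnmt3a and Dnmt3b, and Dnmt3b is below every MUL-HSC library in 5 of 6 PEM-HSC libraries.

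The de novo methyltransferases gave the 2 largest log2 fold changes among the 9 genes. Dnmt3b was at 19.2, 9.01 and 51.3 CPM in PLT-HSC, at 5.15 to 26.7 CPM in PEM-HSC (median 9.89), against 31.8, 43.0, 29.9 and 25.6 CPM in MUL-HSC. In PEM-HSC, 5 of 6 libraries lay at or under 12.96 CPM, below every MUL-HSC library, and only replicate 6 reached their range. The mean was 11.8 ± 7.82 CPM in PEM-HSC (SD, n = 6) and 32.6 ± 7.42 CPM in MUL-HSC (SD, n = 4), with a fold of 0.354 by the edgeR fit. The log2 fold change was -1.50 (SE 0.55, unadjusted p = 0.0143), but its adjusted p by edgeR over 12536 genes was 0.727, so it was not called, with rank 246 of all genes by p. It lay between -1.90 and -1.31 with any 1 library left out, and was -1.22 (unadjusted p = 0.112) without MUL-HSC replicates 1 and 2. For PLT-HSC against MUL-HSC it was -0.39 (SE 0.66), with PLT-HSC replicates 1 and 2 below and replicate 3 above every MUL-HSC library, and for PLT-HSC against PEM-HSC it was 1.11 (SE 0.59, unadjusted p = 0.0769).

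Dnmt3a, the de novo enzyme whose loss is known to favour HSC self-renewal in mice, was at 34.7, 13.7 and 49.3 CPM in PLT-HSC, at 3.84 to 32.4 CPM in PEM-HSC (median 17.3), against 20.5, 15.1, 5.62 and 11.4 CPM in MUL-HSC. PLT-HSC replicates 1 and 3 lay above every other library, and replicate 2 lay within the MUL-HSC range. The log2 fold change of Dnmt3a was 1.24 for PLT-HSC against MUL-HSC (SE 0.72, edgeR adjusted p = 0.806), 0.31 for PEM-HSC against MUL-HSC and 0.93 for PLT-HSC against PEM-HSC. None passed the test.

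Because both enzymes are read from the same library, the ratio of Dnmt3a to Dnmt3b counts does not depend on library size. This ratio was chosen after its values were seen. It was 1.81, 1.52 and 0.961 in PLT-HSC, 0.605 to 2.99 in PEM-HSC (median 1.36), and 0.646, 0.350, 0.188 and 0.445 in MUL-HSC. Every MUL-HSC library had fewer Dnmt3a than Dnmt3b reads, and the lowest PEM-HSC library, replicate 5, was the only one of the other 9 within the MUL-HSC range. On the log2 scale the mean and SD were 0.47 ± 0.47 for 3 PLT-HSC libraries, 0.42 ± 0.96 for 6 PEM-HSC libraries and -1.43 ± 0.75 for 4 MUL-HSC libraries. The difference was 1.85 for PEM-HSC minus MUL-HSC (two-sided exact permutation p = 0.0190, adjusted p = 0.343 over 18 comparisons) and 1.90 for PLT-HSC minus MUL-HSC (exact p = 0.0571, adjusted p = 0.514). With 35 possible splits the two-sided exact test of the second comparison could not go under p = 0.0571, the value it gave. Neither comparison passed after adjustment. The groups did not overlap for PLT-HSC against MUL-HSC, but the share of all gene pairs whose ratio does so was not computed. These 2 comparisons share the MUL-HSC libraries, and PLT-HSC minus PEM-HSC was 0.04 (exact p = 1). The 5 other ratios tested (Uhrf1 to Dnmt1, the 3 pairs of TET genes, and Idh1 to Idh2) had no adjusted p under 0.963 by the same exact test.

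**Figure D3:**
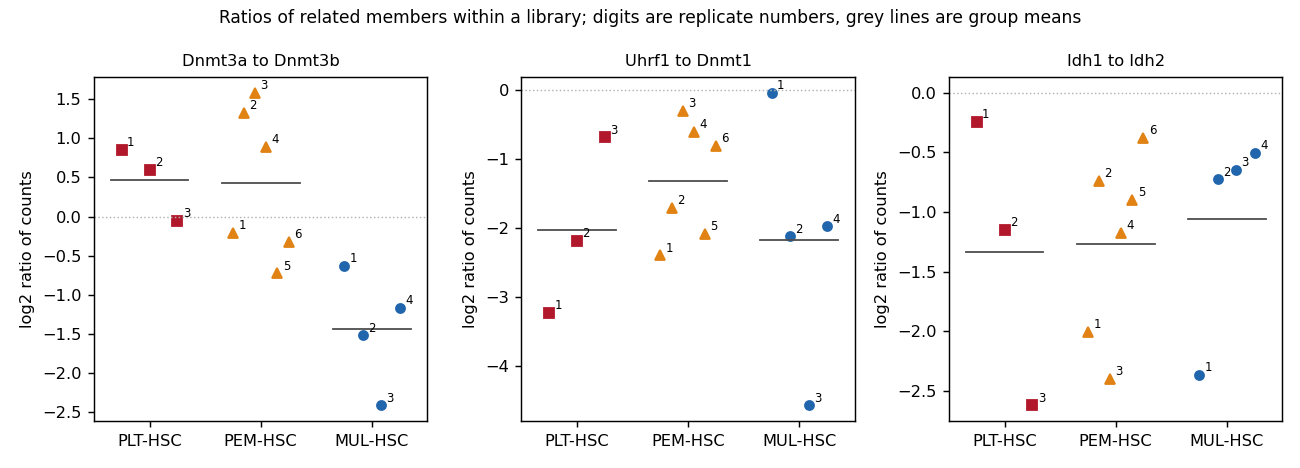
Log2 ratio of read counts within a library for Dnmt3a to Dnmt3b, Uhrf1 to Dnmt1 and Idh1 to Idh2, with a point per library marked with its replicate number and a grey line at the group mean. For Dnmt3a to Dnmt3b all 4 MUL-HSC points lie under 0, while for the other pairs the groups overlap.

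The 3 TET enzymes oxidise methylated cytosine and so open the way to its removal. Tet1 was at 10.5, 48.8 and 35.8 CPM in PLT-HSC, at 4.37 to 26.0 CPM in PEM-HSC (median 15.0), against 9.37, 30.95, 39.9 and 27.7 CPM in MUL-HSC. In all, 2 of 3 PLT-HSC libraries and 3 of 4 MUL-HSC libraries were above every PEM-HSC library, and replicate 1 of each was below 5 of 6 of them. Its log2 fold change was 0.25 for PLT-HSC against MUL-HSC, -0.78 for PEM-HSC against MUL-HSC and 1.02 for PLT-HSC against PEM-HSC (SE 0.61, unadjusted p = 0.11).

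Tet2, the TET gene most often mutated in human clonal haematopoiesis, was at 13.2, 25.1 and 21.8 CPM in PLT-HSC, at 10.1 to 20.2 CPM in PEM-HSC (median 12.1), against 20.5, 13.9, 12.03 and 32.8 CPM in MUL-HSC. The groups overlapped, and 5 of 6 PEM-HSC libraries were at or under 13.03 CPM. The log2 fold change of Tet2 was 0.03 for PLT-HSC against MUL-HSC, -0.59 for PEM-HSC against MUL-HSC and 0.62 for PLT-HSC against PEM-HSC. Tet3 was at 6.07, 11.5 and 43.5 CPM in PLT-HSC, at 6.16 to 40.7 CPM in PEM-HSC (median 15.2), against 50.9, 20.3, 19.2 and 30.6 CPM in MUL-HSC. PLT-HSC replicates 1 and 2 lay below every MUL-HSC library, and replicate 3 did not. For Tet3 the log2 fold changes were -0.66 (SE 0.75), -0.75 and 0.09 in the same 3 comparisons.

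The isocitrate dehydrogenases were the most abundant of the 9. Idh1, the cytosolic enzyme, was at 203, 114 and 41.1 CPM in PLT-HSC, at 60.6 to 205 CPM in PEM-HSC (median 137), against 82.5, 138, 180 and 159 CPM in MUL-HSC. PLT-HSC alone spanned nearly the whole range, with replicate 3 the lowest of all 13 libraries. Idh2, the mitochondrial enzyme, was at 240, 253 and 252 CPM in PLT-HSC, at 207 to 532 CPM in PEM-HSC (median 269), against 425, 227, 281 and 226 CPM in MUL-HSC. The 3 PLT-HSC libraries differed by a coefficient of variation of 2.84%, inside the range of both other groups. The log2 fold changes of Idh1 were -0.19, -0.07 and -0.12, and those of Idh2 were -0.23, 0.09 and -0.33, for PLT-HSC against MUL-HSC, PEM-HSC against MUL-HSC and PLT-HSC against PEM-HSC.

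Across the 9 genes, 0 were called in PLT-HSC against MUL-HSC, where 0.0479% of all 12536 tested genes were called. In PEM-HSC against MUL-HSC 0 of 9 were called, against 0.00798% of all genes, and in PLT-HSC against PEM-HSC 0 of 9, against 0% of all genes. At an unadjusted p under 0.05 the edgeR counts were 0, 1 and 0 of 9, against 7.37%, 5.93% and 3.73% of all genes, and the 1 was Dnmt3b. DESeq2 and limma-voom also called 0 of 9 in each comparison. No gene had groups that did not overlap in CPM, against 6.79%, 1.49% and 2.16% of all genes. Log2 fold changes were positive for 4 of 9 genes in PLT-HSC against MUL-HSC (median -0.04, against 0.04 and 52.4% positive over all genes). They were positive for 2 of 9, Dnmt3a and Idh2, in PEM-HSC against MUL-HSC (median -0.59, against 0.01 and 50.7%), and for 7 of 9 in PLT-HSC against PEM-HSC (median 0.62, against 0.02 and 51.5%). The SEs are wide: for Dnmt3a, PLT-HSC against MUL-HSC, the interval of about 2 SE each way ran from -0.16 to 2.64, and for Dnmt3b, PEM-HSC against MUL-HSC, from -2.57 to -0.43.

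**Figure D4:**
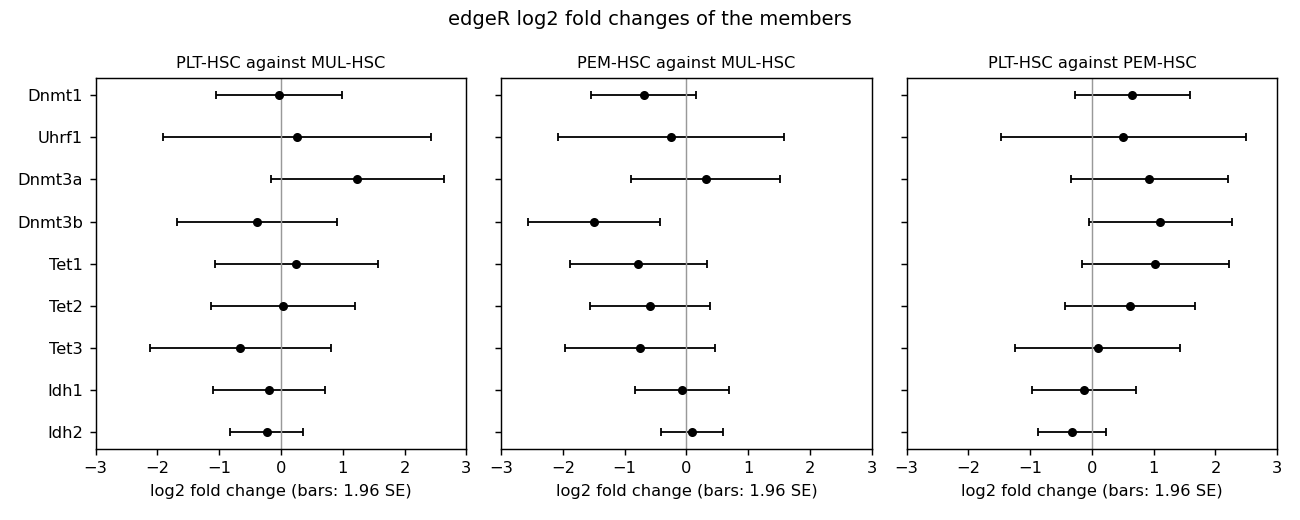
Log2 fold change of each of the 9 genes by edgeR for PLT-HSC against MUL-HSC, PEM-HSC against MUL-HSC and PLT-HSC against PEM-HSC, with bars of about 2 SE each way. Only the bar of Dnmt3b in PEM-HSC against MUL-HSC, centred on -1.50, does not cross 0.

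A single library decided several of these values. PLT-HSC replicate 3 was the highest of 13 libraries in 4 of the 9 genes, Dnmt1, Uhrf1, Dnmt3a and Dnmt3b, and the lowest in Idh1. It also had the most detected genes (12310). Without it, the PLT-HSC against MUL-HSC log2 fold change was -1.03 for Dnmt1, -2.22 for Uhrf1, -1.17 for Dnmt3b, -1.72 for Tet3 and 0.23 for Idh1, so that Uhrf1 and Idh1 changed sign. For PLT-HSC against PEM-HSC it was -0.34 for Dnmt1, -1.98 for Uhrf1, 0.31 for Dnmt3b, -0.97 for Tet3 and 0.30 for Idh1, and all but Dnmt3b changed sign. None was called with or without this library. MUL-HSC replicate 1 mattered for Uhrf1, whose log2 fold change in PEM-HSC against MUL-HSC was 0.74 without it.

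Both maintenance genes moved with the genes of DNA replication across libraries. The replication list holds 42 genes, among them Rfc2 and Slbp, the 2 highest by mean log2 CPM over the 13 libraries, which load the replication clamp and process histone messages. Rfc2 averaged 263 CPM in PLT-HSC, 360.3 CPM in PEM-HSC and 629 CPM in MUL-HSC, and Slbp 269, 295 and 424 CPM. Summed over the list, the level was 1854, 2446 and 4705 CPM in PLT-HSC, 2434 to 5488 CPM in PEM-HSC (median 3390), and 6497, 5428, 2757 and 5346 CPM in MUL-HSC. PLT-HSC replicate 3 had rank 3 of 13 in its mean log2 level, and PLT-HSC replicates 1 and 2 had ranks 13 and 11. Over the 13 libraries, Pearson's r with that mean was 0.88 for Uhrf1 (Spearman's rho 0.92) and 0.62 for Dnmt1 (rho 0.76). With the 2 libraries farthest from the median left out, r was 0.85 for Uhrf1 and 0.61 for Dnmt1, and with group means removed 0.96 and 0.69. Tet3 had r 0.63, with 0.34 without those 2 libraries and 0.58 with group means removed, so Dnmt1 was not above it in r over all libraries. Dnmt3a had r 0.20, with 0.54 without those 2 libraries and 0.53 with group means removed. Tet1 had -0.15 and Idh1 -0.30. With 24 mitosis genes, r was 0.77 for Uhrf1, 0.71 for Tet3 and 0.52 for Dnmt1. Points of one library share its depth and its RNA, and these values are descriptions.

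**Figure D5:**
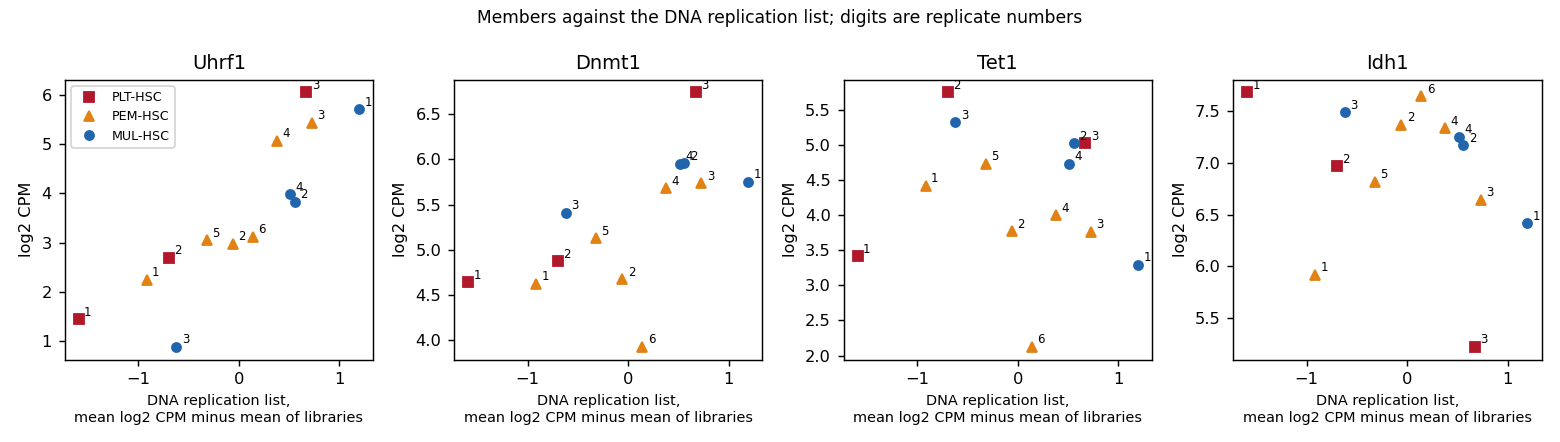
Log2 CPM of Uhrf1, Dnmt1, Tet1 and Idh1 against the mean log2 CPM of 42 DNA replication genes, centred on the mean of the 13 libraries, with a point per library. Uhrf1 follows the list most closely (r = 0.88), with MUL-HSC replicate 3 below the other points, and Tet1 does not (r = -0.15).

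Most replication genes had negative log2 fold changes in the 3 comparisons, though none passed the edgeR test. In PLT-HSC against MUL-HSC, 35 of 42 had a negative log2 fold change (median -0.76, against 0.04 over all genes), 9 had an unadjusted p under 0.05, all lower (3.26% of all genes were), and 0 were called by edgeR. DESeq2 called 1, Rfc2, and limma-voom 0. The median was -1.405 without PLT-HSC replicate 3, -0.465 without PLT-HSC replicate 1 and -0.37 without MUL-HSC replicates 1 and 2. In PEM-HSC against MUL-HSC 34 of 42 were negative (median -0.38), but 22 of 42 (median -0.02) without MUL-HSC replicates 1 and 2. Dropping MUL-HSC replicate 1 alone gave a median of -0.09, and dropping MUL-HSC replicate 3 alone gave -0.58. In PLT-HSC against PEM-HSC 32 of 42 were negative (median -0.33). There the median was -0.11 (23 of 42 negative) when PLT-HSC replicate 1 was dropped, -0.19 (25 of 42) when PLT-HSC replicate 2 was dropped and -1.09 when it was PLT-HSC replicate 3. With the list's mean as a covariate, the log2 fold change of Uhrf1 was 1.89 (unadjusted p = 0.0096, edgeR adjusted p = 0.73) in PLT-HSC against MUL-HSC, and that of Dnmt3a was 1.93 (unadjusted p = 0.0358). Neither was called.

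Other genes of the pathway were taken from lists. The 3 comparisons are given in the order PLT-HSC against MUL-HSC, PEM-HSC against MUL-HSC and PLT-HSC against PEM-HSC. Of the 165 genes tested over all pathway lists, edgeR called 0 in each, against 6, 1 and 0 of all 12536 genes. At an unadjusted edgeR p under 0.05 there were 19, 6 and 3 of the 165, against 7.37%, 5.93% and 3.73% of all genes. DESeq2 called 2, 1 and 0 of the 165, against 262, 177 and 114 over all genes. Its calls on the lists were Gadd45g in the first and second comparison and Rfc2 in the first, and limma-voom called 0. Among 7 partners of maintenance methylation, 4 had negative log2 fold changes in PLT-HSC against MUL-HSC and 5 in PEM-HSC against MUL-HSC. The 2 highest by mean log2 CPM were Pcna, the sliding clamp that DNMT1 binds, at a mean of 204 CPM in PLT-HSC, 254 CPM in PEM-HSC and 321 CPM in MUL-HSC, and Cdca7, a partner of the remodeller HELLS, at 189, 196 and 274 CPM in the same order. Of 8 de novo partners and H3K36 methyltransferases, 6 were tested, and 4, 2 and 4 of them were positive in the 3 comparisons. Trim28, a corepressor that brings in methylation at repeats, was at 167, 158 and 157 CPM, and Nsd1, an H3K36 methyltransferase, at 99.5, 87.3 and 102 CPM.

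Genes downstream of the TET step, in base excision and active demethylation, had positive log2 fold changes in 10 of 13 for PLT-HSC against MUL-HSC (median 0.51), 8 of 13 for PEM-HSC against MUL-HSC (median 0.40) and 9 of 13 for PLT-HSC against PEM-HSC (median 0.10). Dropping PLT-HSC replicate 3 took the first median to 0.03, dropping PEM-HSC replicate 3 took the second to -0.09, and dropping PLT-HSC replicate 1 took the third to 0.41. Apobec1, a cytidine deaminase, averaged 80.4 CPM in PLT-HSC, 104 CPM in PEM-HSC and 45.6 CPM in MUL-HSC, and Apex1, the endonuclease at abasic sites, 52.9, 67.5 and 85.0 CPM. Gadd45g, a stress-induced gene that has been linked to active demethylation, ranked below Apobec1 and Apex1 by mean log2 CPM, so it fell outside the rule for named genes and was chosen after its values were seen. It was at 69.6, 166 and 80.2 CPM in PLT-HSC, at 48.2 to 167 CPM in PEM-HSC, against 4.96, 9.92, 17.35 and 31.9 CPM in MUL-HSC. All 9 libraries of PLT-HSC and PEM-HSC exceeded the highest of MUL-HSC. Groups did not overlap, in either direction, in 6.79% of all genes for PLT-HSC against MUL-HSC and in 1.49% for PEM-HSC against MUL-HSC. The edgeR log2 fold change was 2.77 (SE 0.55, adjusted p = 0.0906) for PLT-HSC against MUL-HSC and 2.51 (SE 0.50, adjusted p = 0.227) for PEM-HSC against MUL-HSC, so it was not called. Adjusted p values of Gadd45g with DESeq2 were 5.65e-05 for PLT-HSC against MUL-HSC and 1.32e-05 for PEM-HSC against MUL-HSC. In these comparisons DESeq2 called 262 and 177 of all genes, where edgeR called 6 and 1. For PLT-HSC against MUL-HSC the edgeR adjusted p was 0.0478 without PLT-HSC replicate 3 and at most 0.646 in the other alternatives, and for PEM-HSC against MUL-HSC it was at most 1.

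Of 9 TET partners, 4 were tested, and 4, 2 and 2 were positive. Ogt, the N-acetylglucosamine transferase that binds TET proteins, averaged 426 CPM in PLT-HSC, 271 CPM in PEM-HSC and 312 CPM in MUL-HSC. Cxxc5 averaged 146, 175 and 144 CPM in the same order. The 9 methyl-CpG readers were positive in 5, 6 and 6 (medians 0.30, 0.30 and 0.08, of which the first was 0.10 without MUL-HSC replicate 2 and the second 0.05 without MUL-HSC replicate 3), led in mean log2 CPM by Mbd2 at 97.6, 112 and 79.5 CPM and Mbd3 at 56.8, 49.4 and 39.5 CPM. Among 17 genes of alpha-ketoglutarate metabolism beside Idh1 and Idh2, 6, 9 and 6 were positive (medians -0.09, 0.0048 and -0.04). Highest by mean log2 CPM were Sdhb, of succinate dehydrogenase, at 536, 562 and 652 CPM and Idh3g, of the mitochondrial NAD-dependent isocitrate dehydrogenase, at 540.3, 562 and 549.7 CPM. In S-adenosylmethionine and one-carbon metabolism, which makes the methyl donor, 15 of 17 were negative in PLT-HSC against MUL-HSC (median -0.33), 13 of 17 in PEM-HSC against MUL-HSC (median -0.35) and 13 of 17 in PLT-HSC against PEM-HSC (median -0.18). Without MUL-HSC replicates 1 and 2 the medians against MUL-HSC were -0.19 for PLT-HSC and -0.15 for PEM-HSC. Without PLT-HSC replicate 3 the median was -0.87 in PLT-HSC against MUL-HSC and -0.41 in PLT-HSC against PEM-HSC. Dropping PLT-HSC replicate 2 gave 0.011, with 8 of 17 negative, in PLT-HSC against PEM-HSC, and dropping PEM-HSC replicate 5 gave -0.11. This list and the replication list have genes in common. The highest genes of this list by mean log2 CPM, Mat2b and Mat2a, subunits of the synthase of S-adenosylmethionine, were near level: Mat2b averaged 497, 509 and 512 CPM and Mat2a 431, 490 and 446 CPM in PLT-HSC, PEM-HSC and MUL-HSC.

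The genes most like each of the 9 were searched by Pearson's r of log2 CPM over the 13 libraries, among 7945 genes. Dnmt1 was most like Pold1 (r = 0.87), which encodes a DNA polymerase subunit, and Uhrf1 most like Rnaseh2a (r = 0.85), Cbx5 (r = 0.85) and Lig1 (r = 0.83), of which Lig1 encodes the ligase of replication. Dnmt3b was most like Rad50 (r = 0.93), a DNA repair gene, and Dnmt3a most like Gulp1 (r = 0.87). The closest genes were Prr24 for Tet1 (r = 0.82), Dcps for Tet2 (r = 0.78), Arhgef18 for Tet3 (r = 0.88), Bloc1s6 for Idh1 (r = 0.91) and Tpi1 for Idh2 (r = 0.88). For Idh2 and Tpi1, r was 0.50 without the 2 farthest libraries. Among the 9 genes, Dnmt1 and Uhrf1 had r 0.67 with each other (0.66 without the 2 farthest libraries), and Dnmt3a and Dnmt3b 0.37 (-0.03 without them). Such values are the best of many and describe these libraries only.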

How the data were processed

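Libraries were made with Smart-seq+ cDNA and Nextera XT per the labels, which name no molecular identifiers, and PCR copies are therefore part of the counts. The submitters' processing notes name featureCounts, STAR, Trimmomatic and FastQC, and the build mm9. The sources used here give no version, annotation or strand mode, so reads of overlapping genes cannot be told apart. The authors deposited raw read counts per gene symbol, with 24015 genes and 92 ERCC rows. ERCC rows, 0.0191% to 0.0612% of counts, were left out.

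Counts were fitted with edgeR 4.0.16 (TMM, filterByExpr, robust quasi-likelihood) in R 4.3.3, with all 13 libraries and a term per group, and p-values were adjusted over 12536 genes. CPM uses the library's gene total, and log2 CPM a prior count of 2. The floor of 3 counts was at most 0.183 CPM and covers counting error only. No 2 replicates agreed within sampling noise (chi-square per degree of freedom at least 163). Alternatives included limma-voom 3.58.1 and DESeq2 1.42.0. Transcript lengths were those of GENCODE transcripts that carry a RefSeq accession, and the exon annotation was also from GENCODE. Promoter windows came from a RefSeq table of GRCm38.p6. These references are of a later build than the counts and served for this only.

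The 9 genes and the lists were chosen with earlier results of these data known. The text names all 9 genes, list genes that were called or else the 2 with the highest mean log2 CPM over the 13 libraries, and the closest genes by r.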

Additional observations from a re-analysis of the deposited data

Results flagged for a closer look

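The 9 genes were checked for single libraries far from the rest in the groups of 4 and 6 libraries, 18 groups in all, of which chance flags about 1 in 20. There were 2. Dnmt3b in PEM-HSC replicate 6 was at 26.7 CPM, with the nearest other PEM-HSC library at 12.96 CPM, a gap of 0.638 of the group's range. Tet2 in PEM-HSC replicate 2 was at 20.2 CPM, with the nearest other at 13.03 CPM, a gap of 0.710 of the range. Without PEM-HSC replicate 6 the log2 fold change of Dnmt3b in PEM-HSC against MUL-HSC was -1.90 (unadjusted p = 0.0031, edgeR adjusted p = 0.614).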

How the results depend on the processing

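Under 25 alternatives per comparison, 13 of which left out 1 library each, 0 of the 9 genes were called. Of the resulting log2 fold changes, 629 kept their direction and 46 reversed. Some alternatives could move a log2 fold change only a little, such as leaving out a library of the group not compared. The tally is therefore no measure of how steady the directions were. Dnmt3b in PEM-HSC against MUL-HSC stayed negative (-1.90 to -1.22), with a lowest adjusted p of 0.296 (DESeq2), and its unadjusted p was under 0.05 in every alternative but the one without MUL-HSC replicates 1 and 2.

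Counts of called genes over the whole table moved more, from causes not tested. For PLT-HSC against MUL-HSC the edgeR count was 6, with 262 by DESeq2, 0 by limma-voom, 11 with no filter, 2 with a replicate block and 1 each with only the 2 groups, with the replication list as a covariate and without MUL-HSC replicates 1 and 2, and 1 to 37 with 1 library left out. For PEM-HSC against MUL-HSC it was 1, with 177 by DESeq2, 0 with only the 2 groups, a replicate block or detected genes as a covariate, and 0 to 4 with 1 library left out. For PLT-HSC against PEM-HSC it was 0, with 114 by DESeq2, 1 by limma-voom and 0 to 2 with 1 library left out.

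Reversed log2 fold changes in PLT-HSC against MUL-HSC were, for Dnmt1, 0.047 with library totals, 0.32 with the replication covariate and 0.042 without MUL-HSC replicates 1 and 2 (-1.03 to 0.33 with 1 library left out). For Uhrf1 they were -0.18 with limma-voom, -0.85 with the replicate block and -1.74 with detected genes as a covariate (-2.22 to 1.28). For Tet2 they were -0.14 with limma-voom, -0.10 with detected genes and -0.11 without MUL-HSC replicates 1 and 2 (-0.26 to 0.34). Without those 2 libraries Tet1 was at -0.045 (-0.33 to 0.67) and Idh2 at 0.0062 (-0.35 to 0.032), and Idh2 was at 0.065 with the replication covariate. Idh1 ran from -0.80 to 0.23.

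In PEM-HSC against MUL-HSC, Uhrf1 was at 1.04 with the replication covariate and 1.01 without MUL-HSC replicates 1 and 2 (-0.74 to 0.74 with 1 library left out). With detected genes, Idh1 was at 0.020 (-0.25 to 0.083) and Idh2 at -0.057 (-0.12 to 0.36), and Dnmt3a ran from -0.0012 to 0.63. In PLT-HSC against PEM-HSC, Uhrf1 was at -0.15 with the replicate block and -0.33 with detected genes (-1.98 to 1.07), Tet3 at -0.32 with detected genes (-0.97 to 0.53) and Idh1 at 0.12 with the block (-0.73 to 0.30), and Dnmt1 ran from -0.34 to 1.02.

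Replicate numbers did not pair libraries: same-numbered libraries had correlations of -0.19 to 0.07 over 10 pairs, and 1 of 11 correlated best with its own number. The order of levels per length changed with the longest transcript and without PEM-HSC replicate 2, PEM-HSC replicate 3 or PLT-HSC replicate 1. The Dnmt3a to Dnmt3b difference ran from 1.53 to 2.12 for PEM-HSC minus MUL-HSC and from 1.57 to 2.16 for PLT-HSC minus MUL-HSC with 1 library left out. The alternatives for this ratio and for the list medians were chosen after seeing the data. Groups held 3 to 6 libraries, and the biological coefficient of variation of the 9 genes ran from 0.297 (Idh2) to 0.973 (Uhrf1). Their lowest value, 1.77 CPM for Uhrf1, was above the floor of 0.183 CPM, which bears on detection only.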

Other observations

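Chromatin regulators other than the 9 genes that are mutated in clonal haematopoiesis were positive in 7 of 12 for PLT-HSC against MUL-HSC (median log2 fold change 0.15), 6 of 12 for PEM-HSC against MUL-HSC (median -0.01) and 8 of 12 for PLT-HSC against PEM-HSC (median 0.24). Without PLT-HSC replicate 3 the first median was -0.08 and the third -0.17. Of this list and the next, edgeR, DESeq2 and limma-voom each called 0 genes. The cohesin subunit genes Stag2 and Smc3 had the highest mean log2 CPM. Stag2 averaged 150.0 CPM in PLT-HSC, 106 CPM in PEM-HSC and 142 CPM in MUL-HSC, and Smc3 averaged 99.1, 117 and 123 CPM in the same order. Other dioxygenases that use alpha-ketoglutarate, led in mean log2 CPM by the histone demethylase gene Kdm5a (71.3, 76.5 and 68.4 CPM) and the RNA demethylase gene Fto (56.1, 70.7 and 55.1 CPM), were positive in 11, 12 and 8 of 17 in the 3 comparisons (medians 0.36, 0.37 and -0.10). The first of these medians was -0.30 without PLT-HSC replicate 3, and the third was 0.20 without PLT-HSC replicate 1.

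The mitosis list of 24 genes was negative in 20 for PLT-HSC against MUL-HSC (median -0.76), in 10 for PEM-HSC against MUL-HSC (median 0.05) and in 21 for PLT-HSC against PEM-HSC (median -0.62). The 3 tools called 0 of them, and edgeR called 1, Nusap1, in PLT-HSC against MUL-HSC without PLT-HSC replicate 3. Without that library the first median was -2.99 and the third -3.15, and without PLT-HSC replicate 1 they were -0.24 and -0.03. The second was -0.52 without PEM-HSC replicate 4. With both MUL-HSC replicates 1 and 2 dropped, the first was 0.12 and the second 0.65. Highest by mean log2 CPM were Ccnb2, a mitotic cyclin, at 103 CPM in PLT-HSC, 186 CPM in PEM-HSC and 176 CPM in MUL-HSC, and Mad2l1, of the spindle checkpoint, at 67.9, 105 and 154 CPM. The summed level of the list was 131, 264 and 1804 CPM in PLT-HSC, with replicate 3 the highest, 345 to 2597 CPM in PEM-HSC and 379 to 1668 CPM in MUL-HSC.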
